A study of Bos taurus with 6 samples.

Results

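The 10 genes described here encode enzymes that build triacylglycerol by the glycerol phosphate pathway: GPAM, AGPAT1, AGPAT2, AGPAT3, AGPAT5, LPIN1, LPIN2, LPIN3, DGAT1 and DGAT2. They were taken by gene name from a table of 24616 bovine genes, and all 10 were found, each in 1 row. The table holds 6 RNA-seq libraries of mammary epithelial cells from Bos taurus, the cells that make and secrete milk. Of these, 3 were control libraries and 3 came from cells given acetate, as the sodium salt NaAc, together with BHBA (beta-hydroxybutyrate), in a design that sets high milk fat against control. The labels give no dose, no duration, no control with matched sodium and no statement on whether the libraries of a group were separate cultures, so the p-values below reflect differences among these libraries that could be technical.

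Milk fat is almost entirely triacylglycerol, and the mammary epithelial cell makes it at the endoplasmic reticulum by adding acyl chains to a glycerol backbone one after another. A glycerol 3-phosphate acyltransferase (GPAM is the mitochondrial form) adds the first chain, and an AGPAT adds the next to give phosphatidic acid. A lipin removes the phosphate to give diacylglycerol, and DGAT1 or DGAT2 adds the last chain. Phosphatidic acid and diacylglycerol are also the branch points to the membrane phospholipids. Each step is served by several genes, which are paralogs (related genes for the same reaction) except for DGAT1 and DGAT2, which are unrelated. Both the summed FPKM of a step and the share of each gene in it were examined.

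Values were FPKM, fragments scaled by the length of the gene and by all fragments mapped, which allows levels of different genes to be set side by side. Depth is unknown, because FPKM keeps no counts of reads. Summed FPKM ran from 787186 in treated replicate 1 to 1134026 in control replicate 1. Control replicate 1 lay farthest from the other libraries of its group, with a median distance of 0.524 on the log2 scale over all tested genes, and treated replicate 1 was the farthest of its group at 0.280. The epithelial markers fitted the label: 8 of 8 were found, and their summed level was 15549 to 20353 FPKM in control and 12507 to 14966 FPKM in treated cells, with no overlap between the groups. The gap rested on KRT5: without it the other 7 summed to 6589 to 10968 FPKM in control and 6482 to 8427 FPKM in treated cells. Among those 7, KRT14 was higher in every treated library, at 18.60, 27.77 and 19.80 FPKM against 17.98, 15.26 and 14.42 FPKM in control. CDH1 was lower in every treated library, though only just. For 6 adipocyte markers found of 7, the sum was 0.42 to 0.83 FPKM in control and 1.23 to 2.33 FPKM in treated cells. LEP supplied most of the treated sum, at 1.55, 1.97 and 1.0 FPKM. PLIN1 went the other way, at 0.31 FPKM in each control library and 0.15, 0.13 and 0.23 FPKM in treated replicates 1, 2 and 3. ADIPOQ was at 0 in 5 of 6 libraries. CIDEC, also an adipocyte gene, was at 0.1, 0 and 0 FPKM in control and at 0 in all 3 treated libraries. The fibroblast sum (7 of 7 markers found) was 21.5 to 41.1 FPKM in control and 33.2 to 43.0 FPKM in treated cells. Of these markers DCN and LUM were higher in every treated library, and the others overlapped between the groups. The leukocyte sum (5 of 5) was 5.02 to 8.54 FPKM in control and 2.95 to 8.54 FPKM in treated cells. The endothelial sum (4 of 4) was 3.16 to 5.18 and 4.44 to 6.41 FPKM. The part of these markers in the results below was not tested, and in bulk RNA a change in the make-up of the culture and a change in RNA per cell cannot be told apart.

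No assembly enzyme passed the test of treated against control cells once p-values were adjusted over all genes, and LPIN1 came nearest. Of the 9 members with a mean of at least 1 FPKM, 0 passed (limma, Benjamini-Hochberg adjusted p under 0.05), beside 0.474% of all 11615 genes tested (40 higher and 15 lower). Before adjustment, 1 of the 9 tested members (LPIN1) had p under 0.05 in limma. Of the 11615 genes tested, 862 were higher and 420 lower at that level, a similar share. The groups did not overlap in 2 of 9 members (22.2%), LPIN1 higher and LPIN3 lower in treated cells, beside 19.7% of all genes tested, so the share was near the background. The remaining member, DGAT2, lay below the minimum and was not tested. The median log2 fold change of the 9 tested members was 0.05 and that of all genes tested 0.08, with 6 members on the higher side and 3 on the lower, where 61.9% of all genes tested were on the higher side. The split of 6 and 3 became 5 and 4 with quantile normalization, 4 and 5 with trimmed-mean factors and 8 and 1 after rescaling each library to the same sum. For 7 of the 9 the 95% interval of the fold change lay within a log2 change of 1 in either direction; the exceptions were LPIN1 and GPAM.

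**Figure D1:**
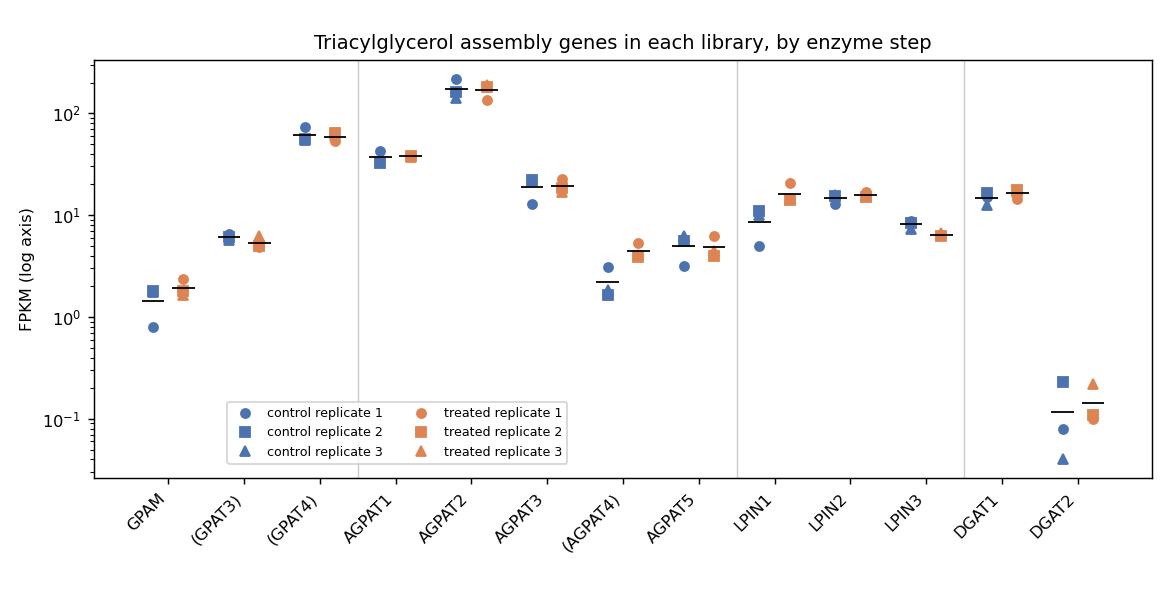
FPKM of each assembly gene in each of the 6 libraries, on a log axis, in the order of the enzyme steps; blue is control, orange is treated, the marker shape gives the replicate and the black line is the group mean. Genes in brackets are paralogs outside the 10, and GPAT2, at 0 in 5 libraries, is left out; AGPAT2 is the highest gene, at 134.02 to 217.65 FPKM, and in LPIN1 every treated library lies above every control library.

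At the first step most of the summed FPKM came from a gene outside the 10, which is a share of RNA and not of enzyme activity. GPAM (ENSBTAG00000011917) was measured at 0.79, 1.79 and 1.76 FPKM in control replicates 1, 2 and 3, and treated replicates 1, 2 and 3 gave 2.36, 1.79 and 1.63 FPKM. The groups overlapped, the low value being control replicate 1 and the high value treated replicate 1, and the log2 fold change of 0.35 ± 0.31 (SE, n = 3 per group) did not pass (limma adjusted p = 0.827). Without control replicate 1 it was 0.08. GPAM supplied 2.21 ± 1.07% of the summed FPKM of the 4 glycerol 3-phosphate acyltransferase genes in control and 2.95 ± 0.84% in treated libraries (SD, n = 3). GPAT4 (once named AGPAT6), the paralog of the endoplasmic reticulum whose loss in mice leaves milk poor in fat, supplied 88.9 ± 1.81% and 88.9 ± 1.39%. Its level was 73.9, 56.4 and 54.1 FPKM in control and 53.0, 64.5 and 59.4 FPKM in treated replicates 1, 2 and 3, with overlapping groups. GPAT3 supplied the rest, 8.91 ± 0.74% and 8.11 ± 1.18%, and GPAT2 was at 0 in 5 of 6 libraries and at 0.04 FPKM in treated replicate 2. The step as a whole summed to 69.0 ± 10.7 FPKM in control and 66.2 ± 5.58 FPKM in treated cells.

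The AGPAT genes, which add the chain that turns lysophosphatidic acid into phosphatidic acid, gave the highest level of the 4 steps, at 236 ± 38.7 FPKM in control and 234 ± 24.4 FPKM in treated cells. AGPAT2 (ENSBTAG00000025161), whose loss in humans causes congenital generalized lipodystrophy, made up 72.7 ± 4.86% and 71.2 ± 5.45% of it. AGPAT2 stood at 217.65, 160.69 and 140.22 FPKM in control and 134.02, 179.28 and 189.17 FPKM in treated replicates 1, 2 and 3. Control replicate 1 was the highest library and treated replicate 1 the lowest, the groups overlapped, and the log2 fold change was -0.04 (95% interval -0.55 to 0.48, limma adjusted p = 0.974). In control cells its mean was above that of 94.0% of all genes tested. AGPAT1 (ENSBTAG00000004442), a ubiquitous paralog of the endoplasmic reticulum, was the steadiest in treated cells, at 38.12, 38.16 and 37.26 FPKM, against 42.98, 32.72 and 35.46 FPKM in control cells. Its log2 fold change was 0.04 (interval -0.28 to 0.36, limma adjusted p = 0.956), and the groups overlapped.

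AGPAT3 and AGPAT5 varied over the 6 libraries about as much as the tested genes at large, with a highest-to-lowest ratio above that of 46.8% and 56.3% of them. AGPAT3 (ENSBTAG00000020456), known in mouse for placing polyunsaturated chains, stood at 12.77, 22.03 and 22.08 FPKM in control and 22.52, 18.26 and 16.96 FPKM in treated cells. Its log2 fold change was 0.05 (interval -0.54 to 0.64, limma adjusted p = 0.970), but -0.20 without control replicate 1 and -0.06 without treated replicate 1. AGPAT5 (ENSBTAG00000004922), a mitochondrial paralog, stood at 3.20, 5.56 and 6.17 FPKM in control and 6.22, 3.96 and 4.45 FPKM in treated cells, with a log2 fold change of 0.00 (interval -0.70 to 0.69, limma adjusted p = 0.998). In both genes control replicate 1 was the lowest library and treated replicate 1 the highest. The signs of AGPAT1, AGPAT2, AGPAT3 and AGPAT5 all turned when a library was left out, over ranges of -0.04 to 0.15, -0.17 to 0.14, -0.20 to 0.18 and -0.26 to 0.16 respectively, so no direction can be given for them. AGPAT4, outside the 10, was the low paralog that stood apart, at 3.08, 1.64 and 1.85 FPKM in control and 5.28, 3.86 and 4.08 FPKM in treated cells. Its groups did not overlap, its log2 fold change was 0.89 ± 0.26 (SE), and it did not pass (limma adjusted p = 0.257). AGPAT4 made up 0.91 ± 0.18% of the step in control and 1.92 ± 0.55% in treated cells.

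Of the 4 steps, only the lipins had a summed level that did not overlap between the groups, where 19.7% of single genes tested did not overlap. That sum includes LPIN1, already counted above. Lipins dephosphorylate phosphatidic acid and, in mice, also act in the nucleus as transcriptional co-regulators. The 3 genes together summed to 26.6, 34.6 and 32.8 FPKM in control and 43.6, 35.3 and 36.3 FPKM in treated replicates 1, 2 and 3, a ratio of means of 1.22. The separation was narrow, since the lowest treated library (replicate 2) and the highest control library (replicate 2) differed by less than the spread within either group. LPIN1 (ENSBTAG00000007689), the lipin of fat and muscle whose loss in mice causes fatty liver dystrophy, stood at 4.94, 10.90 and 9.95 FPKM in control and 20.49, 14.00 and 14.23 FPKM in treated cells. Every treated library lay above every control library, with control replicate 1 the lowest and treated replicate 1 the highest of all 6. The log2 fold change was 0.93 ± 0.32 (SE; 1.91-fold; 95% interval 0.16 to 1.70) and did not pass over all genes (limma adjusted p = 0.341).

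LPIN1 was also the tested member with the widest range over the 6 libraries, 4.15-fold from lowest to highest, wider than in 89.4% of all genes tested. The 2 libraries at the ends of that range are those farthest from the rest of their groups. Being lowest in control replicate 1 and highest in treated replicate 1 was shared by 5 of the 9 tested members (GPAM, AGPAT3, AGPAT5, LPIN1 and LPIN2), and by 25.9% of all genes tested. Without control replicate 1 the log2 fold change of LPIN1 was 0.60 (limma adjusted p = 0.185), and without both of these libraries, a choice made after the data were seen, it was 0.42 (limma adjusted p = 0.0269). That last fit called 29.3% of all genes tested and 2 of 9 members (22.2%), LPIN1 and AGPAT3, the latter at -0.32 (limma adjusted p = 0.0408). With the log2 of summed FPKM as a covariate LPIN1 stood at 0.77 and passed (limma adjusted p = 0.00323), 1 of 9 members, where 18.0% of all genes tested passed. LPIN1 lay higher in treated cells in all 18 alternatives, between 0.42 and 1.13, and passed in those 2. Most of these settings could not turn its sign. As the groups did not overlap, leaving out libraries or changing the pseudocount keeps it, and changes to the filter, variance estimate or replicate block left 0.93 as it was. The part of the library differences in the result was not tested.

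**Figure D2:**
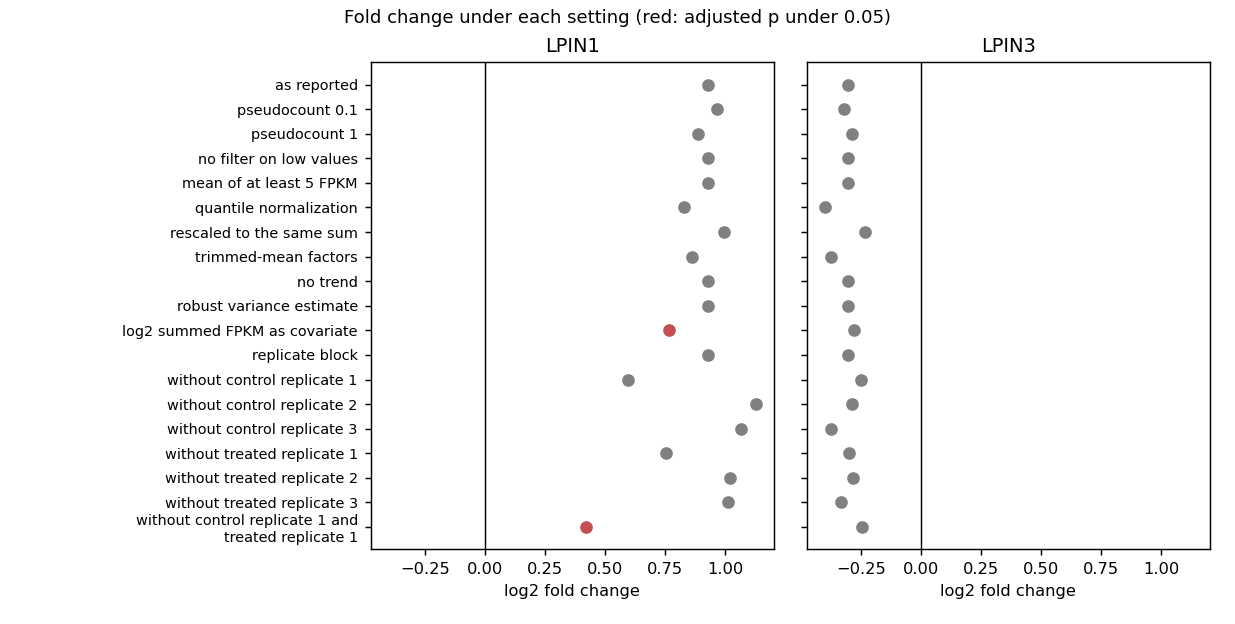
Log2 fold change (treated against control) of LPIN1, left, and LPIN3, right, as reported and under each of the 18 alternative settings, on a shared axis; red points have an adjusted p under 0.05. LPIN1 stays between 0.42 and 1.13 and LPIN3 between -0.40 and -0.24, and the 2 red points are LPIN1 with summed FPKM as a covariate and without replicate 1 of both groups. As the groups of both genes do not overlap, only the scalings and the covariate could turn a sign.

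LPIN2 (ENSBTAG00000012060), mutated in human Majeed syndrome, hardly varied. It stood at 12.92, 15.45 and 15.61 FPKM in control and 16.72, 15.10 and 15.31 FPKM in treated cells, with overlapping groups and a log2 fold change of 0.10 (interval -0.22 to 0.42, limma adjusted p = 0.906). LPIN3 (ENSBTAG00000009165), the least studied lipin, stood at 8.74, 8.29 and 7.26 FPKM in control and 6.38, 6.22 and 6.72 FPKM in treated cells. Every treated library lay below every control library, though the log2 fold change of -0.31 ± 0.14 (SE; interval -0.65 to 0.04) did not pass (limma adjusted p = 0.531). It was negative in all 18 alternatives, from -0.40 to -0.24, and passed in 0 of them. As the groups did not overlap, only the scalings and the covariate could have turned that sign.

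Because the 3 lipins are counted in the same library, their shares do not move with a common scaling of that library. LPIN1 supplied 18.6, 31.5 and 30.3% of the lipin FPKM in control replicates 1, 2 and 3, and 47.0, 39.6 and 39.2% in the treated replicates. The mean share was 26.8 ± 7.14% and 42.0 ± 4.37% (SD, n = 3 per group), a difference of 15.2 percentage points. The share of LPIN3 was 26.3 ± 5.75% and 16.9 ± 2.04%, and that of LPIN2 46.9 ± 2.06% and 41.1 ± 2.40%; in each lipin the groups did not overlap. The 3 shares sum to 100% in each library, so they are not separate observations, and the FPKM of LPIN2 itself overlapped between the groups. In control cells LPIN2 was the first lipin in every library, and in treated cells LPIN1 exceeded LPIN2 in replicate 1 and lay just below it in replicates 2 and 3. The difference in the LPIN1 share was 11.1 to 17.5 percentage points with any single library left out and 8.55 without replicate 1 of both groups. The shares are given as a description with no test; an exact 2-sided permutation of 3 libraries against 3 cannot go below p = 0.10.

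**Figure D3:**
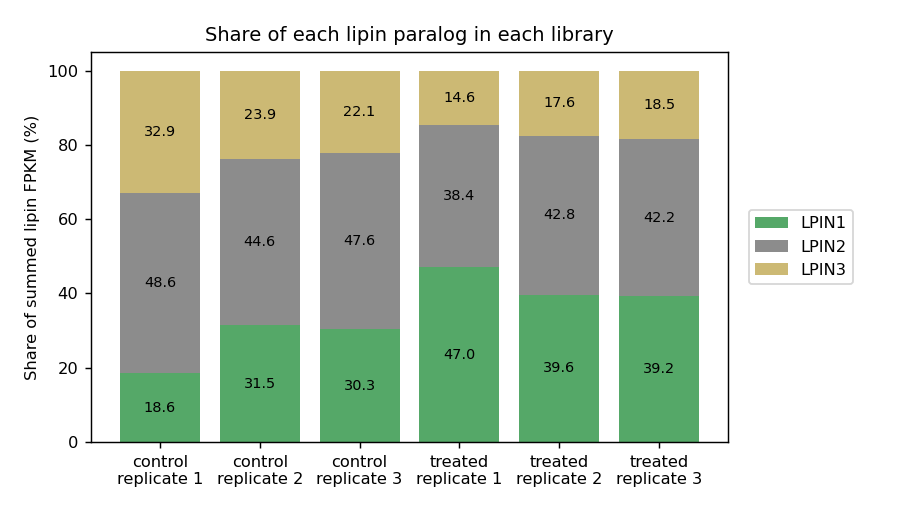
Share of LPIN1, LPIN2 and LPIN3 in the summed lipin FPKM of each library, in percent, with 1 bar per library and the value printed in each segment. The LPIN1 segment is 18.6 to 31.5% in the control bars and 39.2 to 47.0% in the treated bars.

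At the last step nearly all of the signal came from DGAT1. DGAT1 (ENSBTAG00000026356), without which mice do not lactate, stood at 15.13, 16.40 and 12.45 FPKM in control and 14.41, 17.79 and 16.94 FPKM in treated cells. The groups overlapped and the log2 fold change was 0.16 ± 0.16 (SE; interval -0.22 to 0.54, limma adjusted p = 0.859). DGAT1 stood on the higher side in all 18 alternatives, between 0.05 and 0.27, though changes to the filter, variance estimate or replicate block cannot move this value. DGAT2 (ENSBTAG00000001154), the unrelated enzyme of the same reaction, stood at 0.08, 0.23 and 0.04 FPKM in control and 0.10, 0.11 and 0.22 FPKM in treated cells, below the minimum of 1 FPKM. It supplied 0.74 ± 0.56% of the DGAT FPKM in control and 0.86 ± 0.37% in treated cells. With no filter on low values its log2 fold change was 0.07 ± 0.14 (limma adjusted p = 0.923).

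Ordered by mean FPKM, the control cells held AGPAT2 first at 173 ± 40.1, then AGPAT1 at 37.1 ± 5.31 and AGPAT3 at 19.0 ± 5.36 FPKM. LPIN2 and DGAT1 followed at equal means of 14.7 FPKM, then LPIN1, LPIN3, AGPAT5, GPAM and DGAT2. The ranges over libraries overlapped between AGPAT3 and LPIN2, LPIN2 and DGAT1, and LPIN1 and LPIN3, so these neighbours were not separated. Beyond neighbours, AGPAT3 also overlapped with DGAT1, and LPIN1 with AGPAT5. In treated cells the order of means was the same for the first 3 and the last 4. DGAT1 (16.4 ± 1.76 FPKM), LPIN1 (16.2 ± 3.68) and LPIN2 (15.7 ± 0.88) overlapped with each other. AGPAT3 overlapped with DGAT1 and with LPIN1, and LPIN3 with AGPAT5.

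**Figure D4:**
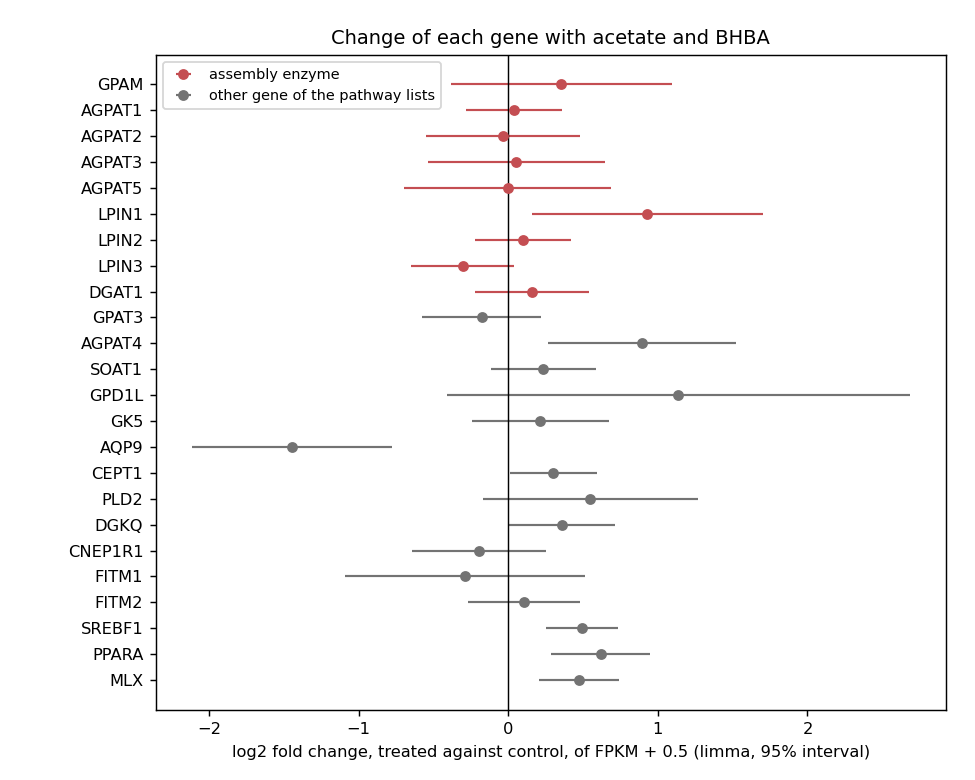
Log2 fold change of FPKM + 0.5, treated against control, with the 95% interval from limma (n = 3 per group), for the 9 tested assembly enzymes (red) and for the genes with the smallest p in each of the other pathway lists (grey). The interval of LPIN1 (0.16 to 1.70) is the only one of the red intervals that does not reach 0, and none of the genes drawn passed over all genes tested.

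The genes that feed or drain the pathway gave the same count, with 0 called in any of the 5 other lists. Of the glycerol 3-phosphate supply genes 8 of 10 were found and 6 tested, 4 on the higher side and 2 on the lower. AQP9, a channel that admits glycerol, had the smallest p among them, at 2.55, 2.86 and 3.11 FPKM in control and 0.40, 0.79 and 1.07 FPKM in treated cells. The groups did not overlap and the log2 fold change was -1.45 ± 0.28 (SE), short of the threshold (limma adjusted p = 0.102). Its mean was 2.84 FPKM in control and 0.75 FPKM in treated cells, so AQP9 met the minimum of 1 FPKM only through the control libraries. With treated values this low the fold change moved with the pseudocount, to -1.87 with 0.1 and -1.15 with 1. GPD1L, a homolog of glycerol 3-phosphate dehydrogenase, stood at 0.77, 4.71 and 5.58 FPKM in control and 11.6, 5.33 and 5.56 FPKM in treated cells. Its log2 fold change of 1.14 (interval -0.41 to 2.68) was 0.42 without control replicate 1 and 0.08 without replicate 1 of both groups. With summed FPKM as a covariate GPD1L stood at 0.79 and passed (limma adjusted p = 0.00371), where 18.0% of all genes tested did. GK5, a glycerol kinase, stood at 0.21 (limma adjusted p = 0.833), or 0.13 without treated replicate 2 and 0.35 without treated replicate 1.

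Among the other acyltransferases (13 of 15 found, 7 tested, 4 higher and 3 lower), AGPAT4 is given above. SOAT1, which esterifies cholesterol, had a log2 fold change of 0.24 and GPAT3 of -0.18 (limma adjusted p from 0.257 for AGPAT4 to 0.842 for GPAT3 over the 3). SOAT1 stood at 0.15 without control replicate 1, and GPAT3 at -0.28 without treated replicate 3. Of the enzymes that make, use or remove phosphatidic acid and diacylglycerol, 18 of 19 were found and 15 tested. On the higher side stood 12 of the 15, where 61.9% of all genes tested did. Their median log2 fold change was 0.22, beside 0.08 for all genes tested, and 0 were called. CEPT1, which joins diacylglycerol to choline or ethanolamine headgroups, stood at 13.95, 15.93 and 15.44 FPKM in control and 18.93, 19.46 and 17.71 FPKM in treated cells (log2 fold change 0.30, limma adjusted p = 0.430). DGKQ, a kinase that returns diacylglycerol to phosphatidic acid, had a log2 fold change of 0.36. PLD2, a phospholipase that releases phosphatidic acid, stood at 0.55, or 0.20 without control replicate 1. Neither passed.

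Lipin regulators and partners of droplet emergence (8 of 8 found, 7 tested) stood 4 higher and 3 lower, with a median of 0.03. CNEP1R1, the regulatory subunit of the phosphatase that dephosphorylates lipin, had a log2 fold change of -0.20 (limma adjusted p = 0.848). It was -0.09 without control replicate 3 and -0.34 without treated replicate 1. Without replicate 1 of both groups, a fit chosen after the data were seen that called 29.3% of all genes tested, it was -0.43 (limma adjusted p = 0.0465). FITM1 had a log2 fold change of -0.29 and FITM2, which binds triacylglycerol at the endoplasmic reticulum, of 0.11. The sign turned in FITM2 without control replicate 1 (-0.03) and in FITM1 without replicate 1 of both groups (0.20). In the fit as reported, the smallest limma adjusted p in this list was 0.848. The transcription factors known to act on triacylglycerol genes stood higher in 9 of 10 tested members (10 of 12 found), against 61.9% of all genes tested. Their median log2 fold change was 0.45, beside 0.08 for all genes tested, and 0 were called. SREBF1, which drives lipid synthesis genes, stood at 40.14, 39.71 and 38.15 FPKM in control and 55.09, 57.07 and 54.53 FPKM in treated cells. Its groups were far apart for their spread, with a log2 fold change of 0.49 (limma adjusted p = 0.116). PPARA stood at 0.62 and MLX, the partner of the carbohydrate-response factors, at 0.47, and neither passed (limma adjusted p = 0.153 and 0.165). With summed FPKM as a covariate 11 of the 45 tested genes of these 5 lists passed (24.4%), where 18.0% of all genes did. Among them were SREBF1, PPARA, MLX, AGPAT4, AQP9, GPD1L, CEPT1 and PLD2. Without replicate 1 of both groups 11 of the 45 (24.4%) also passed, where 29.3% of all genes did.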

How the data were processed

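The authors deposited 1 table of FPKM values, rounded to 2 decimals, with 1 column for each of the 6 libraries. The unit comes from the name of the deposited table. Per the labels' protocols, poly(A) RNA was made into TruSeq libraries and read as pairs on an Illumina HiSeq. Per the submitters' processing notes the build was ARS-UCD1.2, and DESeq2 is named with no role. The sources used here name no aligner, counter, gene models or strand setting. Gene lengths behind FPKM, and reads shared between overlapping genes, are therefore uncertain. No promoter or protein sequences were used, so the planned motif searches were not run.

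Columns were assigned to samples by name and groups were taken from the sample titles. The treated columns carry NaAc and a replicate number but no mention of BHBA, and they were matched to the titles with NaAc and BHBA because no other title has NaAc. The 11615 genes averaging 1 FPKM or more were compared as log2(FPKM + 0.5), a scale that understates the change of low genes, with limma 3.58.1 (R 4.3.3), using a mean-variance trend, no covariate, 2-sided tests and a threshold of 0.05 after Benjamini-Hochberg adjustment across the tested genes. The procedure was checked on simulated data, with noise drawn independently for each gene and planted changes larger than that of any member. The check does not cover deviations shared by many genes of a library, or changes as small as those seen here. No count model was fitted, as FPKM holds no counts, and depth is unknown. Shares are a gene's FPKM over the summed FPKM of its step. Figures were drawn with matplotlib 3.10.9 in Python 3.11.15.

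The 10 members, the 5 other lists and the tests were chosen with earlier results of these data known. All 10 members are named. Of each other list, genes past the threshold and up to 3 tested genes with the smallest p are named. The others enter the counts only. GPAT2, GPAT4, NR1H3, MOGAT1 and DGAT2L6 were named after their values were seen. So were the markers LEP, PLIN1, ADIPOQ, CIDEC, KRT5, KRT14, CDH1, DCN and LUM. MOGAT2, MOGAT3, GK, AQP7, TAMM41, CEBPA, CEBPB and the adipocyte marker CD36 were not matched by name. The alternatives were other pseudocounts, filters, scalings, variance estimates, a covariate, a replicate block and the removal of libraries.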

Additional observations from a re-analysis of the deposited data

How the results depend on the processing

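With 3 libraries in each group and no read counts, precision rests on the spread between libraries alone. The number of genes called was 55 as reported, 33 with a mean of at least 5 FPKM, 23 after rescaling, 2089 with summed FPKM as a covariate, and 0 to 205 with 1 library left out (0 without control replicate 2 or any 1 treated replicate, 1 without control replicate 3, 205 without control replicate 1). Where 0 genes were called, 584 to 921 had p under 0.05 before adjustment in limma. Without replicate 1 of both groups, added after the data were seen, 3404 were called. Assembly genes called were 0 as reported and in all alternatives but 2. Of the 9 tested, 1 (11.1%) was called with the covariate and 2 (22.2%) without replicate 1 of both groups. The other lists had 0 called, and 11 of 45 tested genes (24.4%) in each of the same 2 fits. Of all genes tested, these fits called 18.0% and 29.3%, in that order. With the replicate number as a block 0 genes were called. The numbers gave no sign of pairing. Deviations from the group means correlated at -0.73, -0.37 and -0.38 for replicates 1, 2 and 3, and no library correlated best with its own number. Deviations within a group sum to 0, so these values depend on each other and cannot settle whether libraries were paired.

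Without replicate 1 of both groups the treated-minus-control difference in share was 8.55 percentage points for LPIN1, -4.95 for LPIN3, -0.35 for GPAM, 4.20 for AGPAT2, -3.20 for AGPAT3 and -1.05 for AGPAT5, moves larger than the SD pooled over both groups, though for LPIN1, LPIN3 and AGPAT3 smaller than the control SD; the cause was not tested. The other ends of the ranges with libraries left out were 17.5, -11.5, 1.07, -3.76, 1.15 and 0.32 percentage points, in that order. Some log2 fold changes that had not passed turned in sign. These were AGPAT1 with trimmed-mean factors (-0.033), AGPAT3 with quantile normalization (-0.039), trimmed means (-0.018) and the covariate (-0.068), AGPAT2 after rescaling (0.038) and with the covariate (0.065), and AGPAT5 after rescaling (0.058). Over the 7 fits with libraries left out, log2 fold changes ran from -0.043 to 0.50 for GPAM, -0.030 to 0.15 for LPIN2, -0.044 to 0.15 for AGPAT1, -0.17 to 0.29 for AGPAT2, -0.32 to 0.18 for AGPAT3, -0.44 to 0.16 for AGPAT5, -0.45 to 0.20 for FITM1 and -0.043 to 0.18 for FITM2.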

Other observations

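A low gene of the alternative route to diacylglycerol, which lay outside the tests, also stood apart. MOGAT1, an enzyme that acylates monoacylglycerol, was measured at 0.22, 0.25 and 0.26 FPKM in control and 1.04, 0.75 and 1.23 FPKM in treated replicates 1, 2 and 3. Every treated library lay above every control library, but its mean over all libraries was 0.625 FPKM, below the minimum of 1. With no filter on low values its log2 fold change was 1.01 ± 0.15 (SE) and did not pass (limma adjusted p = 0.0676). DGAT2L6, a relative of DGAT2, was at 0, 0.10 and 0 FPKM in control and 0.21, 0.11 and 0.14 FPKM in treated cells, with limma adjusted p = 0.357 in the same fit.

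Within each library the log2 ratio of LPIN1 to LPIN3 was -0.82, 0.39 and 0.45 in control and 1.68, 1.17 and 1.08 in treated replicates 1, 2 and 3. The means were 0.01 ± 0.72 and 1.31 ± 0.32 (SD), with no overlap between the groups. The ratio of LPIN1 to LPIN2 was -1.39, -0.50 and -0.65 in control and 0.29, -0.11 and -0.11 in treated cells, also without overlap. Both ratios are independent of the scaling of a library, and both were chosen after the values were seen.

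NR1H3, the LXR alpha receptor, stood at 13.6, 8.13 and 7.41 FPKM in control and 12.2, 17.4 and 14.0 FPKM in treated cells, so the groups overlapped through control replicate 1 and treated replicate 1. Its log2 fold change was 0.59 and did not pass (limma adjusted p = 0.489). The adjusted p was 0.00363 with summed FPKM as a covariate, where 18.0% of all genes passed.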
